A study of Mus musculus with 6 samples.

Results

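The nuclear-encoded subunits of respiratory chain complexes I, II, III and IV, together with cytochrome c, were examined in activated mouse B cells. They were chosen by name as the protein-coding genes of GENCODE release M21 whose symbols begin with Nduf (then a, b, c, s or v and a digit), Uqcr, or Cox with a digit between 4 and 8, plus Sdha, Sdhb, Sdhc, Sdhd, Cyc1 and Cycs. This gave 69 genes of the 54838 identifiers in the count table: 37 of complex I, 4 of complex II, 9 of complex III, 18 of complex IV, and Cycs. Of these, 64 had enough counts to be tested (36, 4, 9 and 14 of complexes I, II, III and IV, and Cycs), among 15136 genes tested in all.

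The study sequenced poly A RNA of 6 libraries, 3 of cells given Cpd10 (A, B and C) and 3 of cells given the solvent DMSO (A, B and C). Cpd10 is a Foxo1 inhibitor per the labels, and was used at 1 µM; Foxo1 is a transcription factor with many roles in B cell development and metabolism. All cells were naive B cells sorted from the spleens of male mice, 3 months of age, that had been immunised with sheep red blood cells 9 days before; cells of 10 mice from 2 independent experiments were pooled before culture. Both groups spent 5 days in culture with 80 ng/ml interleukin 4 and 5 µg/ml of an antibody to CD40, and Cpd10 or DMSO was added on day 3 for the remaining 48 hours. No mouse strain or mutant allele is named in the labels, and it is not stated what the letters A, B and C mark. The p-values below set the difference between the groups against the spread between libraries of a group, and that spread may be technical. Because cells were pooled before culture, the p-values do not take in variation between mice.

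The respiratory chain passes electrons from NADH (at complex I) or succinate (at complex II, which is also an enzyme of the tricarboxylic acid cycle) through coenzyme Q, complex III and the mobile carrier cytochrome c to oxygen at complex IV. Complexes I, III and IV pump protons, and ATP synthase uses the resulting gradient. Complex II is made of nuclear-encoded subunits alone, whereas the other complexes also hold subunits encoded by mitochondrial DNA. Naive B cells that are activated enlarge and increase their mitochondrial content.

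Libraries held between 36873204 and 44859930 counts. The B cell markers were present in every library, with Cd79a at 598, 829 and 775 CPM (read counts scaled by the normalised library size) in Cpd10 A, B and C and at 642, 758 and 815 CPM in DMSO A, B and C. Of the 8 B cell markers, 3 had an edgeR log2 fold change above 0. Ms4a1 was the lowest, with 318, 279 and 284 CPM in Cpd10 and 551, 277 and 556 CPM in DMSO (-0.65, edgeR unadjusted p = 0.038, Benjamini-Hochberg adjusted p = 0.560). Ptprc was lower in every Cpd10 library than in any DMSO library (-0.22, adjusted p = 0.678). Of the T cell markers, Cd3d, Cd3e and Cd3g each stayed at or below 0.385 CPM in every library, and the list as a whole is described further below. Foxo1 itself had 129.8, 114.6 and 110.8 CPM in Cpd10 libraries, against 136.7, 122.3 and 155.3 CPM in DMSO libraries (edgeR log2 fold change -0.22 ± 0.12 SE, Benjamini-Hochberg adjusted p = 0.711); an inhibitor of the protein need not change this transcript. The libraries also separated in a way that crosses the groups and is not in the labels: outside the respiratory chain, 9 genes had at most 3 counts in DMSO A, DMSO C and Cpd10 A (set 1) and at least 50 in DMSO B, Cpd10 B and Cpd10 C (set 2) or the reverse, against 1 gene for the next best split. The origin of the sets is unknown here, and values are therefore also given within them. Foxo1 was lower in every set 2 library than in any set 1 library. Its Cpd10 minus DMSO difference in log2 CPM was -0.17 within set 1 and -0.12 within set 2. The 13 subunit genes of mitochondrial DNA had 0 counts throughout the table and are left aside.

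Transcripts of the respiratory chain were slightly higher in Cpd10-treated cells on balance, and the difference of no single gene passed the test. Of the 64 tested genes, 58 (90.6%) had a fitted log2 fold change above 0, against 49.8% of all genes tested. Their median log2 fold change was 0.18, against -0.0012 for all genes. None was called at an adjusted p under 0.05 by edgeR's quasi-likelihood test, where 0.37% of all genes (56 genes) were called; DESeq2 also called 0 of them, against 2.52% of all genes. The smallest adjusted p among them was 0.442, for Ndufv1. At an unadjusted p under 0.05 there were 5 genes (7.81%), Ndufv1, Ndufa13, Uqcrc1, Cox6c and Cox7a2, all higher in Cpd10, against 8.39% of all genes in either direction and 3.86% higher; DESeq2 gave 4, against 9.43% of all genes. These shares describe genes that vary together across the same 6 libraries, so they do not count as that many separate observations.

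The smallest absolute log2 fold change among the 56 called genes was 0.81, whereas the 61 tested subunits with a mean of at least 10 CPM lay between -0.53 (Cox6a2) and 0.29 (Cox6c). The median standard error of the 64 subunits was 0.14, against 0.19 for the called genes. The 95% interval of the fold change covered 0 on the log2 scale for 59 of the 64. For Ndufv1, the interval ran from 1.04-fold to 1.41-fold. The least precise of the 61 were Cox6a2 (0.167-fold to 2.86-fold) and Cox6b2 (0.484-fold to 2.55-fold), whose intervals include changes beyond 0.81 on the log2 scale. The upper ends of the intervals of Uqcrh (1.88-fold) and Ndufv3 (1.79-fold) also lie beyond it. In bulk RNA, fewer cells of a type and less RNA per cell cannot be told apart.

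**Figure D1:**
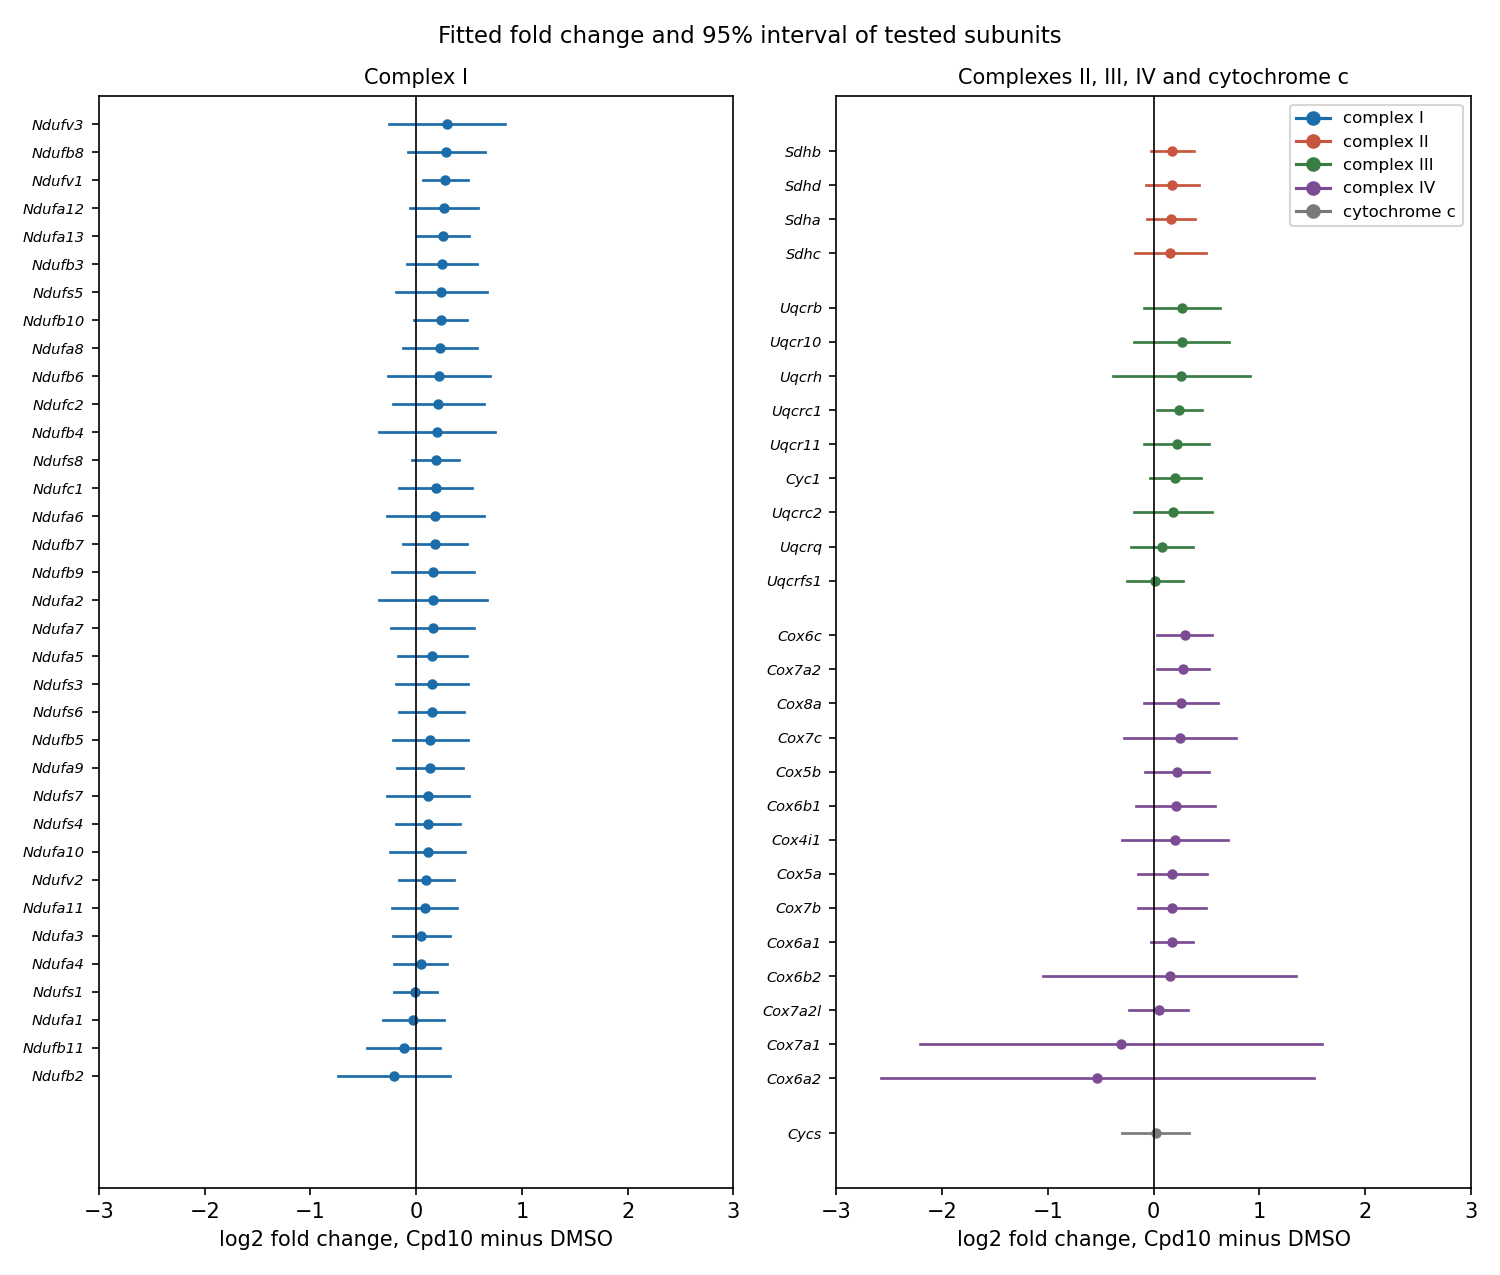
Fitted log2 fold change (Cpd10 minus DMSO, x axis) of 63 of the 64 tested subunits, as a point with its 95% interval from edgeR, coloured by complex and ordered within complexes. Most points lie just above 0 and 58 of the intervals drawn cover 0; Cox6a2, Cox7a1 and Cox6b2 have by far the widest intervals.

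The 10 genes in which every Cpd10 library lay above every DMSO library (15.6% of the 64, against 7.31% of all genes) came from all 4 complexes: Ndufa13, Ndufs8, Ndufv1, Sdha, Sdhb, Cyc1, Uqcrc1, Cox6a1, Cox6c and Cox7a2. In none was every Cpd10 library below every DMSO library, against 7.32% of all genes.

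Differences between the library sets were larger than those between the groups, with a median log2 difference of 0.29 (set 2 minus set 1) over the 64 genes. In 44 of the 64 genes (68.8%) every set 2 library lay above every set 1 library, against 18.8% of all genes, and in 0 genes every set 2 library lay below, against 17.1% of all genes. The split by complex was 25 of 36 in complex I, 1 of 4 in complex II (Sdhc), 7 of 9 in complex III, 10 of 14 in complex IV, and Cycs. Cpd10 B was the highest library for 41 of the 64 (64.1%), against 16.6% of all genes. Because set 2 holds 2 of the 3 Cpd10 libraries and set 1 holds 2 of the 3 DMSO libraries, a difference between the sets adds to the difference between the groups. With the set as a term, the median log2 fold change of the 64 genes was 0.068, 51 were above 0 (48% of all genes were), and the subunit called was Cox6a2 alone, which was lower (3.96% of all genes were called, and 1.64% were called lower). Higher in both sets were 35 genes (54.7%), against 29.5% of all genes, and lower in both were 5, against 32.3% of all genes. The median difference was 0.069 in set 1 (Cpd10 A minus the mean of DMSO A and C) and 0.063 in set 2 (the mean of Cpd10 B and C minus DMSO B). Since the sets were found in the same data, p-values with the set term are exploratory.

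**Figure D2:**
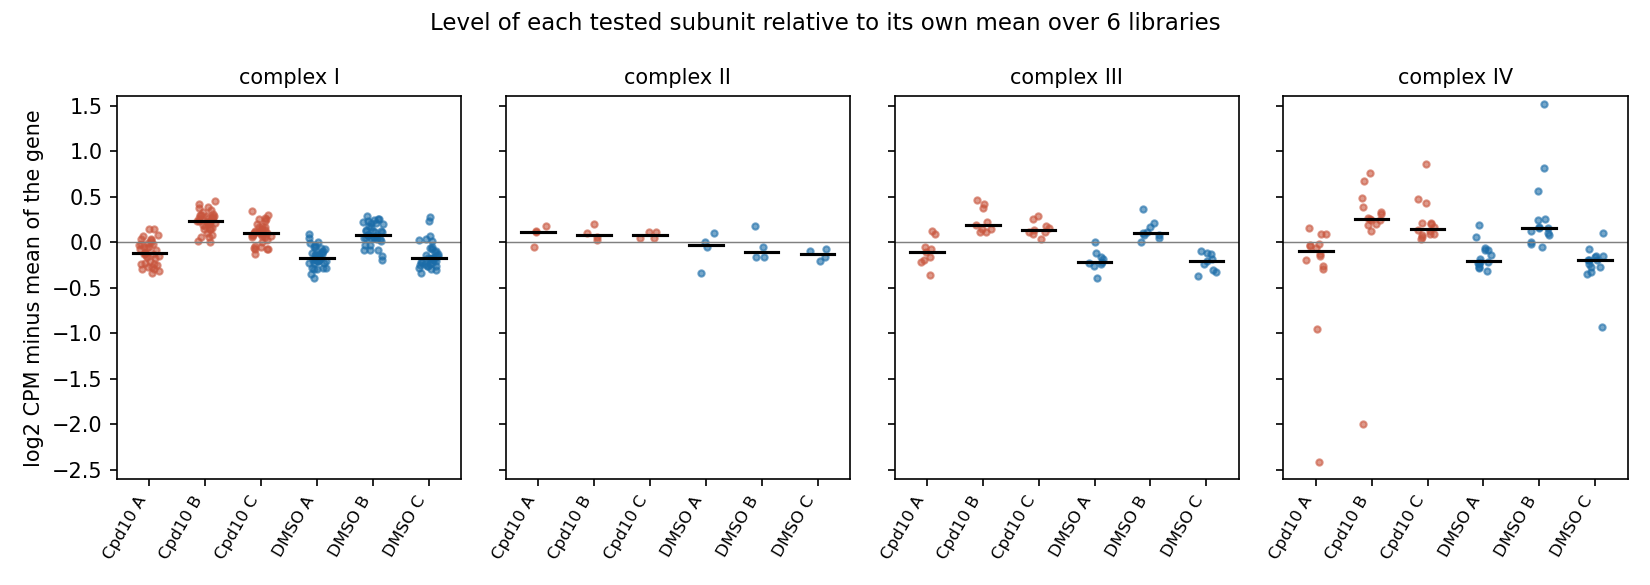
Level of each tested subunit of complexes I to IV in each library, as log2 CPM minus the mean of the gene over the 6 libraries (y axis); points are genes, black bars are medians, red is Cpd10 and blue is DMSO. In complexes I, III and IV, Cpd10 B, Cpd10 C and DMSO B lie above Cpd10 A, DMSO A and DMSO C, and in complex II the medians of all 3 Cpd10 libraries (0.12, 0.081 and 0.077) lie above those of DMSO A, B and C (-0.028, -0.11 and -0.13).

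Complex II, succinate dehydrogenase, was the complex whose summed level separated the groups. Its 4 transcripts added up to 530, 513 and 511 CPM in Cpd10 A, B and C, against 472, 462 and 450 CPM in DMSO A, B and C. Every Cpd10 library was above every DMSO library, and the libraries of the 2 sets did not separate. The means were 518.1 ± 10.3 CPM in Cpd10 and 461.3 ± 11.3 CPM in DMSO (SD, n = 3 each). The size of the difference was not particular to complex II. The log2 ratio of the group means of the sums was 0.17, against 0.14, 0.19 and 0.19 for complexes I, III and IV. No test was made of the sum, and none of the 4 genes passed the test across all genes.

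**Figure D3:**
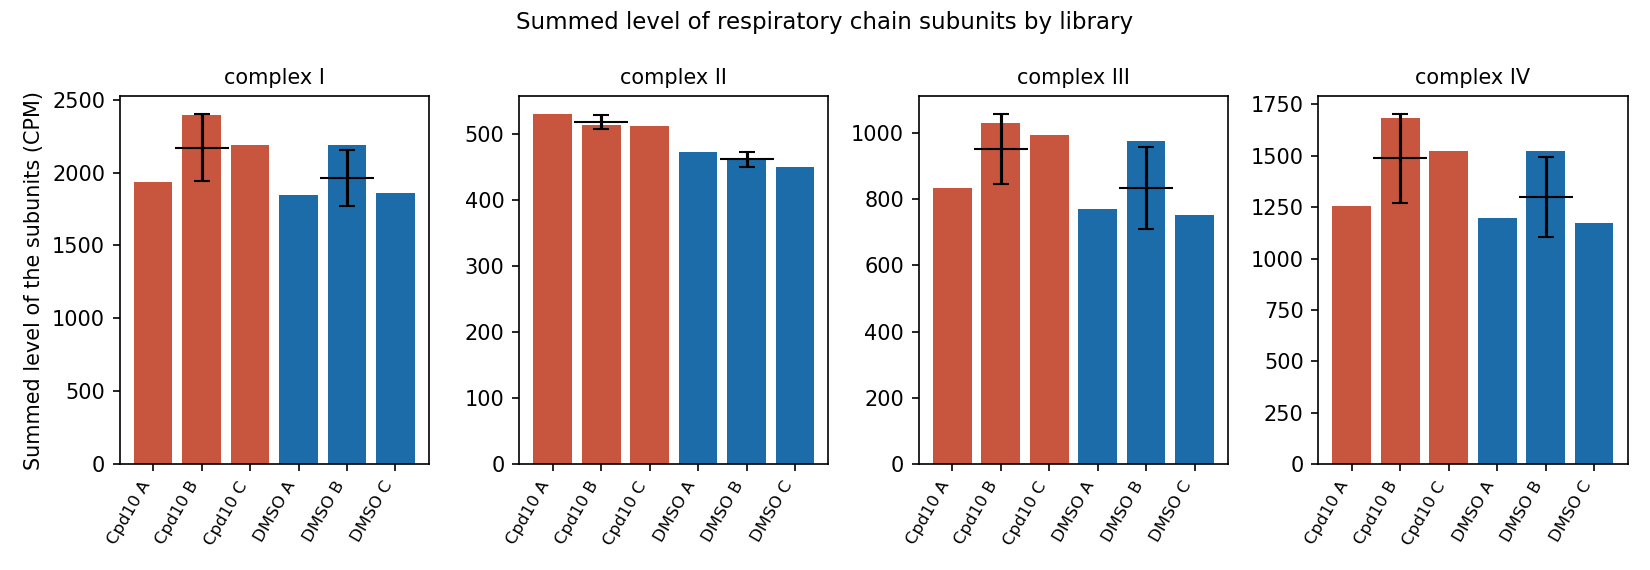
Summed level (CPM, y axis) of the subunits of each complex by library; bars are libraries (red Cpd10, blue DMSO), and the black marks are group means with their SD (n = 3 each). Bars of complex II are higher in all 3 Cpd10 libraries (511 to 530 CPM) than in the DMSO libraries (450 to 472 CPM), and the groups overlap in complexes I, III and IV.

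Sdha, the flavoprotein subunit that oxidises succinate, had 267, 238.7 and 243.3 CPM in Cpd10 A, B and C, against 235.3, 210.1 and 222.9 CPM in DMSO A, B and C. Both groups were highest in replicate A, and the lowest Cpd10 library was just above the highest DMSO library. The log2 fold change was 0.16 ± 0.096 SE (edgeR adjusted p = 0.745), with an interval from 0.960-fold to 1.31-fold, and the difference was 0.22 in set 1 and 0.20 in set 2. Sdhb, which carries the iron-sulfur clusters, had 88.3, 87.0 and 83.5 CPM in Cpd10 and 78.0, 78.1 and 72.5 CPM in DMSO. The groups did not overlap, and replicate C was the lowest of each. Its log2 fold change was 0.18 ± 0.086 (adjusted p = 0.665).

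The 2 membrane anchor subunits of complex II, which hold the coenzyme Q site, overlapped between the groups. Sdhd had 89.8, 86.9 and 89.8 CPM in Cpd10 against 89.4, 74.3 and 72.0 CPM in DMSO, so that DMSO A alone reached the Cpd10 range (log2 fold change 0.18 ± 0.11, edgeR adjusted p = 0.753). Sdhc had 84.8, 100.6 and 94.6 CPM in Cpd10 and 69.4, 99.6 and 82.2 CPM in DMSO. It followed the sets, being higher in every set 2 library (0.16 ± 0.14, adjusted p = 0.859; 0.17 in set 1 and -0.030 in set 2). Per length, Sdhd was the most abundant transcript of complex II (72.2 RPKM in Cpd10 and 63.8 RPKM in DMSO; RPKM is CPM per kilobase of exon) and Sdhc the least (28.7 and 25.8 RPKM in the same order of groups).

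The promoters shown all held one of the motifs counted here. Of complex II they are those of Sdha and Sdhd, since Sdhb held no such motif and Sdhc was not among the promoters examined. The others are those of Cox6a1, whose groups did not overlap, and Uqcrh, whose sets stood far apart. The sequences come from RefSeq (build GRCm38.p6), run 5′ to 3′ toward the annotated start, and cover the 200 bases before it on the minus strand at chr13:74350241-74350440, chr9:50603850-50604049, chr5:115348959-115349158 and chr4:116075071-116075270 in that order. Capitals mark matches to GCGCA followed by any base and GCGC, a form of the site of nuclear respiratory factor 1 (NRF1), or to CCGGAAGT (or its reverse complement), a form of the site of GABPA, which is also known as NRF2 alpha; both factors are known regulators of respiratory chain genes.
Sdha: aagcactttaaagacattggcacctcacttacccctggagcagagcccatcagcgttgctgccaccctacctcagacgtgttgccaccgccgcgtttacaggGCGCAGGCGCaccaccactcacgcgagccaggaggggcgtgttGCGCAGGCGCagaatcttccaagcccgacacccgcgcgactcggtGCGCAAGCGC
Sdhd: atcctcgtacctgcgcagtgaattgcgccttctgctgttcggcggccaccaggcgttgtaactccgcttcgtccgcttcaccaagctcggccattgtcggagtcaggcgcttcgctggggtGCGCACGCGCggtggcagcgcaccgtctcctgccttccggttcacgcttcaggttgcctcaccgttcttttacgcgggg
Cox6a1: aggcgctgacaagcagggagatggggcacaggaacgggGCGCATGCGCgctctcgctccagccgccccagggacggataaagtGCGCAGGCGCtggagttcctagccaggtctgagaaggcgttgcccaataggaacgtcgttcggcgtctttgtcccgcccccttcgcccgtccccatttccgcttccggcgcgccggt
Uqcrh: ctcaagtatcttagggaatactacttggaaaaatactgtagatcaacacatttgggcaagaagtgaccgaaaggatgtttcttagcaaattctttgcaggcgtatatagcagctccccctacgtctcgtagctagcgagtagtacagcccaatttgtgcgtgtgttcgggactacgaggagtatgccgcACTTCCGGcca

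Over the full windows, from 250 bases before to 50 after the start and on both strands, 54 of the 69 genes were in the table. This NRF1 motif was found in 11 of the 54 (20.4%), against 5.19% of all 27025 genes with a promoter there. Those 27025 were not limited to genes tested here, so the shares are not set against genes of like expression. Sdha held 3 matches, beginning 98, 55 and 10 bases before the start, Cox6a1 held 2 (162 and 117 bases before) and Sdhd 1 (79 bases before). AAGATGGCG, a form of the YY1 site, was found in 5 (9.26%, against 1.64%), CCGGAAGT in 4 (7.41%, against 4.31%; in Uqcrh 11 bases before the start), and GTAAACA, a form of the FOXO site, in 1 (1.85%, against 4.05%), which was Cox7a2. At least 1 of the first 3 motifs was found in 19 of the 54 (35.2%, against 10.3%). Of the genes whose groups did not overlap, Sdha, Cox6a1, Uqcrc1 and Cox7a2 held a match of a motif counted here. Ndufv1, Ndufa13, Ndufs8 and Sdhb held none, and Cyc1 and Cox6c were not among the genes with a promoter there. Ndufv3, whose sets also stood far apart, held none. No matches of different motifs overlapped in these windows. A match is a description of the letters and not a bound site.

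Complex I, NADH dehydrogenase, summed to 1932, 2392 and 2190 CPM in Cpd10 A, B and C, against 1846, 2187 and 1859 CPM in DMSO A, B and C. The groups overlapped and the 3 libraries of set 2 were the highest. The median log2 fold change of its 36 tested genes was 0.16 (0.053 with the set term), and 32 were above 0. Its genes with every Cpd10 library above every DMSO library numbered 3 of the 36, against 7.31% of all genes. Medians were close in its core subunits of the catalytic arm (7 genes, 0.15), in the Ndufb and Ndufc genes, accessory subunits of the membrane arm (12 genes, 0.19), and in the other accessory subunits (17 genes, 0.15).

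Ndufv1, which binds NADH and the flavin that takes its electrons, had 96.3, 109.4 and 95.8 CPM in Cpd10 libraries, against 81.1, 86.0 and 81.9 CPM in DMSO libraries. All 3 Cpd10 libraries were above all 3 DMSO libraries. The log2 fold change was 0.28 ± 0.093 SE (edgeR unadjusted p = 0.019, adjusted p = 0.442), and it was nearly the same within set 1 (0.24) and within set 2 (0.25). Ndufs8, an iron-sulfur core subunit encoded 94609 bases from Ndufv1 on chromosome 19, had 81.1, 95.05 and 86.3 CPM in Cpd10 and 74.4, 80.0 and 76.4 CPM in DMSO, without overlap (0.19 ± 0.096, adjusted p = 0.703).

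Ndufa13, an accessory subunit also known as GRIM19, had 67.7, 79.7 and 69.9 CPM in Cpd10 and 56.6, 62.6 and 63.4 CPM in DMSO, without overlap (log2 fold change 0.25 ± 0.11, edgeR adjusted p = 0.580; 0.18 in set 1 and 0.25 in set 2). Ndufb10, an accessory subunit of the membrane arm, had 69.0, 77.1 and 74.5 CPM in Cpd10 and 57.7, 69.9 and 60.2 CPM in DMSO. DMSO B alone reached into the Cpd10 range (0.23 ± 0.11, adjusted p = 0.645).

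Other core subunits lay closer to 0. Ndufs1, the large iron-sulfur subunit, had 80.8, 78.9 and 76.5 CPM in Cpd10, against 81.7, 80.9 and 74.7 CPM in DMSO, so the groups overlapped; its log2 fold change of -0.0067 had an interval from 0.865-fold to 1.15-fold. The log2 fold change was 0.15 for Ndufs3 and 0.12 for Ndufs7, which line the path to coenzyme Q, and 0.097 for Ndufv2, which sits beside Ndufv1. All 3 were higher in each set 2 library than in any set 1 library, and their edgeR adjusted p lay between 0.871 and 0.913.

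Below 0 in complex I were Ndufa1, Ndufb11, Ndufb2 and Ndufs1; Ndufb11 is named after its values were seen. Ndufb11, in the membrane arm, had 75.3, 104.8 and 87.9 CPM in Cpd10 and 84.7, 109.1 and 97.1 CPM in DMSO, and was lower in both sets (-0.27 and -0.18), although its adjusted p was 0.906 (edgeR). Ndufa1, a small membrane subunit, was the most abundant complex I transcript per length, at 123 ± 5.49 RPKM in Cpd10 and 125 ± 17.7 RPKM in DMSO (SD, n = 3 each). The lowest tested was Ndufb2, at 0.882 and 1.02 RPKM in the same order of groups; its annotated exons overlap those of Braf. Ndufa4, named as a complex I gene but since found as a subunit of complex IV, had 85.9, 86.5 and 77.7 CPM in Cpd10 and 87.3, 71.6 and 83.7 CPM in DMSO. Its paralogue Ndufa4l2 was not tested, with at most 0.535 CPM in a library.

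Complex III, cytochrome c reductase, summed to 832, 1030 and 993 CPM in Cpd10 A, B and C, against 771, 975.5 and 751 CPM in DMSO A, B and C. The groups overlapped, and Cpd10 A, of set 1, was the Cpd10 library nearest to DMSO A and C. All 9 genes had a log2 fold change above 0, with a median of 0.22 (0.098 with the set term, 0.13 within set 1 and 0.045 within set 2).

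Uqcrc1, a core protein of the matrix side, had 203.1, 202.0 and 205.4 CPM in Cpd10, against 166.6, 186.9 and 162.2 CPM in DMSO. The Cpd10 libraries were nearly level with each other and above all DMSO libraries (log2 fold change 0.24 ± 0.092 SE, edgeR unadjusted p = 0.031, adjusted p = 0.529). Cyc1, cytochrome c1, had 107.1, 108.9 and 108.6 CPM in Cpd10 and 86.1, 106.6 and 88.8 CPM in DMSO. The Cpd10 libraries were again level, and the separation from DMSO B was small (0.21 ± 0.10, adjusted p = 0.696; 0.29 in set 1 and 0.029 in set 2).

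Uqcrfs1, the Rieske iron-sulfur protein, had 78.9, 97.6 and 90.8 CPM in Cpd10 and 88.6, 95.9 and 80.8 CPM in DMSO, with the groups fully overlapping (0.011 ± 0.11, edgeR adjusted p = 0.989). Uqcrh, the hinge protein that helps cytochrome c dock, was the most abundant per length, at 120 ± 33.3 RPKM in Cpd10 and 100 ± 31.9 RPKM in DMSO. Its CPM were 103.0, 182.4 and 161.5 in Cpd10 and 100.6, 169.8 and 102.3 in DMSO. The 3 libraries of set 2 stood far above the 3 of set 1, and within each set the difference was 0.022 and 0.016 on the log2 scale. Uqcrb, a small subunit, had 35.5, 48.6 and 40.0 CPM in Cpd10 and 31.8, 39.7 and 31.8 CPM in DMSO, with DMSO B inside the Cpd10 range (0.27 ± 0.15, adjusted p = 0.744).

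Cycs, the somatic cytochrome c that carries electrons to complex IV and also triggers the apoptosome, had 49.0, 57.5 and 53.4 CPM in Cpd10, against 52.2, 60.7 and 44.9 CPM in DMSO. The groups overlapped fully, and the set 2 libraries were the highest. The log2 fold change was 0.019 ± 0.14 SE (edgeR adjusted p = 0.983), with an interval from 0.815-fold to 1.26-fold.

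Complex IV, cytochrome c oxidase, summed to 1257, 1685 and 1521 CPM in Cpd10 A, B and C, against 1198, 1526 and 1175 CPM in DMSO A, B and C. The order again followed the sets. Of its 14 tested genes, 12 were above 0, with a median of 0.19 (0.076 with the set term). Its genes with every Cpd10 library above every DMSO library numbered 3 of the 14, against 7.31% of all genes.

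Cox6c, a small membrane subunit, had the highest log2 fold change of all tested subunits. It had 115.4, 146.8 and 133.6 CPM in Cpd10, against 104.5, 114.2 and 104.0 CPM in DMSO. Cpd10 A exceeded DMSO B by little, and the other Cpd10 libraries stood well above DMSO (0.29 ± 0.11 SE, edgeR unadjusted p = 0.031, adjusted p = 0.529; 0.15 in set 1 and 0.29 in set 2). Cox7a2, the widely expressed form of subunit VIIa, had 68.3, 75.9 and 67.9 CPM in Cpd10 and 54.6, 64.3 and 55.8 CPM in DMSO, without overlap (0.28 ± 0.11, adjusted p = 0.529).

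Cox6a1, the widely expressed form of subunit VIa, had 125.1, 127.8 and 120.4 CPM in Cpd10, against 110.0, 115.5 and 105.4 CPM in DMSO. It was higher in every Cpd10 library and, unlike most subunits, did not separate by set (0.17 ± 0.085 SE, edgeR adjusted p = 0.672). Cox4i1, which takes part in the control of the enzyme by ATP, had 238.0, 382.7 and 337.8 CPM in Cpd10 and 240.4, 349.9 and 243.2 CPM in DMSO. It separated by set and hardly differed within the sets (-0.023 and 0.039). For Cox5a and Cox5b, further nuclear subunits, the log2 fold change was 0.18 (adjusted p = 0.833) and 0.22 (adjusted p = 0.748). Cox8a, a small membrane subunit, was the most abundant transcript of complex IV per length, at 254 RPKM in Cpd10 and 211 RPKM in DMSO (0.26 ± 0.15, adjusted p = 0.736).

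**Figure D4:**
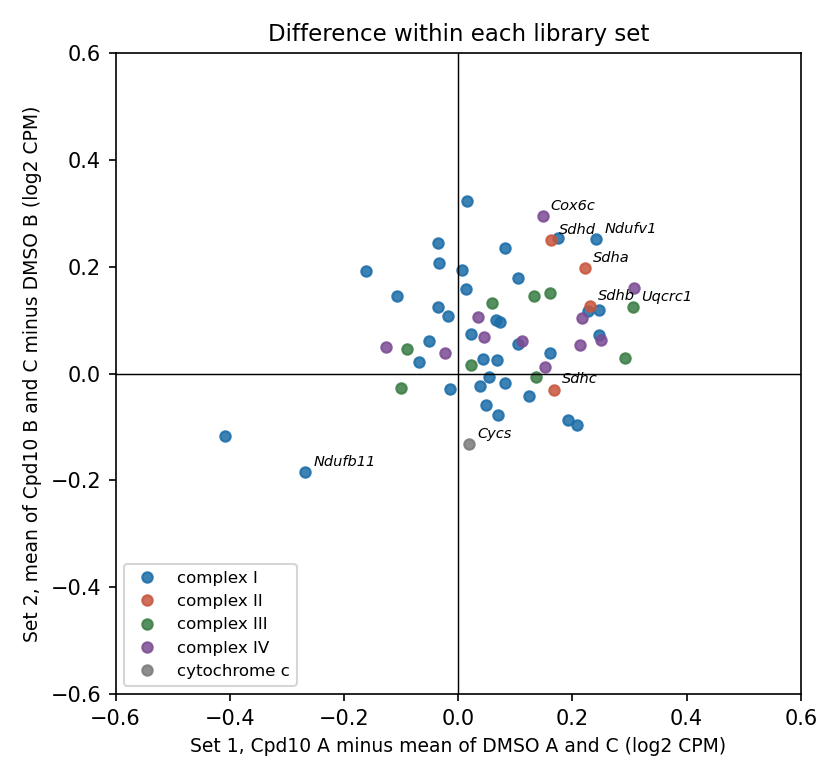
Difference between Cpd10 and DMSO in log2 CPM within library set 1 (x axis) and within set 2 (y axis) for 61 of the 64 tested subunits, coloured by complex; Cox6a2, Cox6b2 and Cox7a1 are left out because they are far from the others. Sdha, Sdhb, Sdhd, Ndufv1, Uqcrc1 and Cox6c lie above 0 on both axes, whereas Ndufb11 lies below 0 on both (-0.27 and -0.18).

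The tissue-restricted paralogues of complex IV were low and varied widely between libraries. Cox6a2, the heart and skeletal muscle form of subunit VIa, is encoded on chromosome 7 (bases 128205435 to 128206387 of GRCm38) and had 1.67, 15.4 and 12.3 CPM in Cpd10 A, B and C, against 8.24, 26.1 and 8.22 CPM in DMSO A, B and C. Cpd10 A was the lowest library and DMSO B the highest, and the groups overlapped. The log2 fold change was -0.53 ± 0.84 SE (edgeR adjusted p = 0.919). Within the sets the difference was -2.26 in set 1 and -0.92 in set 2, and with the set term Cox6a2 fell by 1.52 on the log2 scale (adjusted p = 0.025), as the only one of the 64 subunits called in that fit. Without DMSO B the fitted value without the set term was 0.25. Dendritic cell markers Flt3 and Itgax had a like pattern over the libraries. Flt3 had 3.68, 23.8 and 15.6 CPM in Cpd10 and 19.5, 35.98 and 15.8 CPM in DMSO, with a difference of -2.24 in set 1 and -0.90 in set 2. Itgax had 1.32, 4.29 and 4.02 CPM in Cpd10 and 2.60, 6.33 and 3.55 CPM in DMSO, with -1.17 in set 1 and -0.60 in set 2; both were lowest in Cpd10 A and highest in DMSO B, as Cox6a2 was. Their list's other markers were Zbtb46 (-0.12 and 0.15 in sets 1 and 2) and Xcr1 and Siglech, at or below 0.266 CPM in every library, and the part of such cells in the Cox6a2 values was not tested. An exon of Itgad lies over Cox6a2 on the other strand, but Itgad itself had between 0 and 13 counts in a library, while Cox6a2 had 76, 608 and 463 counts in Cpd10 and 368, 949 and 338 in DMSO.

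Of all Cox6a transcript per length, Cox6a2 made up 1.36%, 11.1% and 9.55% in Cpd10 and 7.18%, 18.9% and 7.45% in DMSO. The share was lower in Cpd10 A than in any other library and the groups overlapped. Cox6b2, known as the testis form of subunit VIb, had 6.96, 21.6 and 18.8 CPM in Cpd10 and 15.4, 20.1 and 7.08 CPM in DMSO (0.15 ± 0.50, edgeR adjusted p = 0.963), and its set 2 libraries were all above its set 1 libraries. It made up 3.66% to 7.97% of Cox6b per length in Cpd10 libraries and 3.82% to 8.74% in DMSO libraries.

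**Figure D5:**
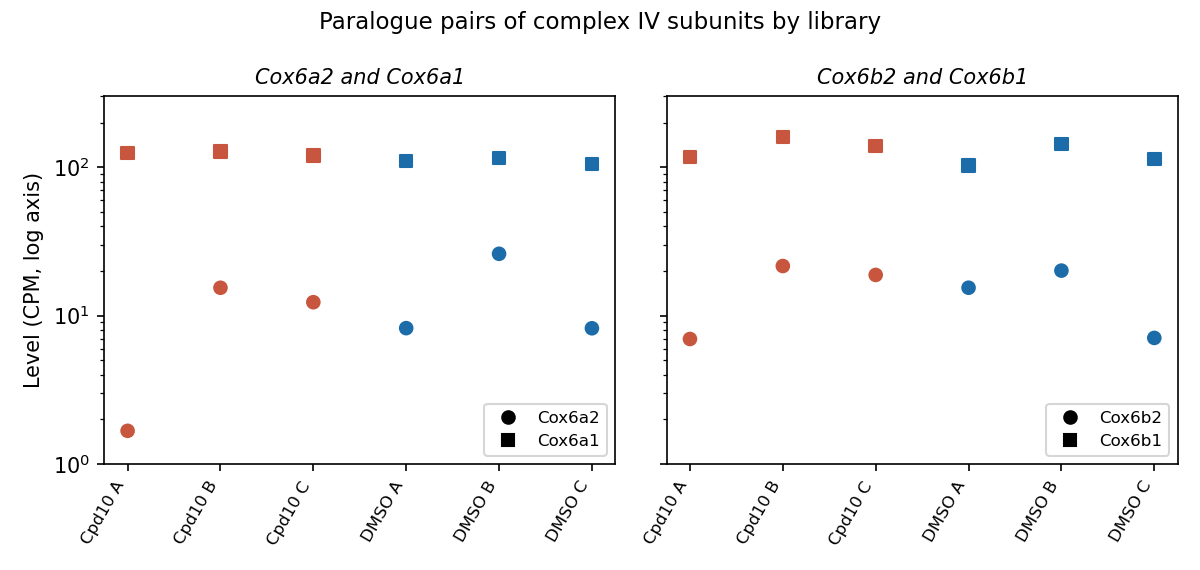
Level (CPM, log axis) of Cox6a2 and Cox6a1 (left) and of Cox6b2 and Cox6b1 (right) in each library; circles are the tissue-restricted forms, squares the ubiquitous ones, red is Cpd10 and blue is DMSO. Cox6a2 ranges from 1.67 CPM in Cpd10 A to 26.1 CPM in DMSO B, while Cox6a1 stays between 105.4 and 127.8 CPM.

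Cox7a1, the muscle form of subunit VIIa, was near the lower limit of testing, at 0.507, 0.0761 and 0.852 CPM in Cpd10 and 0.470, 0.826 and 0.487 CPM in DMSO (-0.31 ± 0.82, edgeR adjusted p = 0.956). Cox7a2l, a relative of Cox7a2 that helps to join complexes III and IV into supercomplexes, had 136.0, 178.2 and 162.5 CPM in Cpd10 and 149.4, 164.4 and 147.5 CPM in DMSO; the groups overlapped (0.047 ± 0.12, adjusted p = 0.954). Cox4i2, Cox7b2, Cox8b and Cox8c, forms known from lung, testis or muscle, were not tested. Cox7b2 and Cox8c were at 0 counts in all libraries, and Cox4i2 and Cox8b had 2 counts each over all 6 libraries.

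Set against complex I, the summed CPM of complex II was 0.274, 0.215 and 0.233 of it in Cpd10 A, B and C, and 0.256, 0.211 and 0.242 in DMSO A, B and C. These ratios overlapped between the groups and were lower in the set 2 libraries, where the complex I sum was higher and the complex II sum was not. The ratio of complex III to complex I lay between 0.431 and 0.453 in Cpd10 and between 0.404 and 0.446 in DMSO, and that of complex IV to complex I between 0.650 and 0.704 in Cpd10 and between 0.632 and 0.698 in DMSO.

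Genes around the chain had a median log2 fold change of 0.10 over the 188 tested in 9 lists of related mitochondrial genes, against 0.18 for the subunits. Of the 188, 0 were called by edgeR (0.37% of all genes were) and 0 by DESeq2 (2.52% of all genes). At an unadjusted p under 0.05 in edgeR there were 7 of the 188, where 8.39% of all genes were past it in either direction. Of these, 5 were higher (3.86% of all genes were) and 2 lower. ATP synthase, which spends the proton gradient, had 18 of 18 tested genes above 0, with a median of 0.21 (0.099 with the set term), and its genes added up to 3601, 4012 and 3812 CPM in Cpd10 and 3188, 3700 and 2969 CPM in DMSO. The mitochondrial ribosome, which makes the mitochondrially encoded subunits, had 68 of 77 above 0 and a median of 0.13 (0.070 with the set term). Its gene with the smallest p, Mrps7, had 106.5, 109.7 and 99.96 CPM in Cpd10 and 89.7, 91.3 and 83.0 CPM in DMSO, without overlap (0.26 ± 0.088, edgeR adjusted p = 0.452).

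The tricarboxylic acid cycle list, without complex II and with pyruvate dehydrogenase and pyruvate carboxylase, had 15 of 18 above 0 and a median of 0.079. That median was 0.075 with the set term, 0.16 within set 1 and -0.044 within set 2. Assembly factors had medians of 0.083 for complex I (13 of 16 above 0, with the acyl carrier Ndufab1 counted among them), 0.14 for complex II (3 of 4), 0.073 for complex III (5 of 7) and 0.018 for complex IV (11 of 22). With the set term these medians were 0.0021, -0.057, 0.13 and 0.021 in that order. The complex II assembly median was -0.24 within set 1 and 0.083 within set 2. Its genes added up to a mean of 85.6 CPM in Cpd10 and 99.4 CPM in DMSO. The complex IV assembly list held Higd2a, at 31.7, 35.0 and 30.3 CPM in Cpd10 and 23.5, 26.2 and 25.3 CPM in DMSO, without overlap (0.37 ± 0.11, edgeR adjusted p = 0.376). Coenzyme Q synthesis had 9 of 13 above 0 (median 0.040, and 0.0084 with the set term). Its atypical kinase Coq8a had 20.6, 28.4 and 32.8 CPM in Cpd10, against 37.0, 36.7 and 35.7 CPM in DMSO (-0.42 ± 0.17, edgeR adjusted p = 0.568). With the set term the edgeR adjusted p of Coq8a was 0.047, which is exploratory. Regulators of mitochondrial biogenesis had 4 of 13 above 0 (median -0.023, and 0.0078 with the set term). Among them Nrf1, the factor whose motif was counted in the promoters, had 60.5, 48.9 and 52.6 CPM in Cpd10 and 57.0, 46.8 and 52.1 CPM in DMSO, and Gabpa had 80.2, 78.5 and 72.4 CPM in Cpd10 and 86.4, 79.5 and 85.1 CPM in DMSO; both overlapped between the groups.

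The sums of the T cell, fibroblast and endothelial, and erythroid markers did not overlap between the groups, and the sums of the other lists of markers did. The 8 T cell markers added up to 24.1 to 30.8 CPM in Cpd10 and 46.0 to 62.5 CPM in DMSO, most of it Lck (20.997 to 26.2 CPM in Cpd10 and 37.3 to 49.0 CPM in DMSO), which B cells can also express. Of the 8, 3 were tested and all 3 had a log2 fold change below 0 (smallest edgeR adjusted p = 0.079). In 2 of them every Cpd10 library lay below every DMSO library, against 7.32% of all genes. With the set term 2 were called lower, against 1.64% of all genes, which is exploratory. The 6 fibroblast and endothelial markers added up to 4.93 to 10.1 CPM in Cpd10 and 11.9 to 20.7 CPM in DMSO, mainly Pecam1, with Col3a1 at 0. The 8 myeloid markers added up to 9.12 to 15.8 CPM in Cpd10 and 14.5 to 22.7 CPM in DMSO, with S100a8 and S100a9 at 0. The 6 erythroid markers added up to 2.29 to 3.25 CPM in Cpd10 and 0 to 0.551 CPM in DMSO, nearly all Hbb-bt, with Hba-a1 and Hba-a2 at 0. The 5 NK cell markers added up to 2.08 to 9.94 CPM in Cpd10 and 3.58 to 12.8 CPM in DMSO, and the 5 dendritic cell markers to 41.5 to 68.9 CPM in Cpd10 and 54.6 to 82.1 CPM in DMSO, where Zbtb46 was the most abundant. Plasma cell markers added up to 2155 to 3086 CPM in Cpd10 and 2018 to 4359 CPM in DMSO. Their part in the differences of the respiratory chain was not tested.

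Beyond the naming, the subunits shared short coding sequences, between 168 and 2181 bases with a median of 387, and were spread over 19 chromosomes, with 3 on X. Only 5 pairs lay within 1 Mb of each other on a chromosome. Across the 64 tested genes, coding length had a Spearman rho of -0.071 with the log2 fold change and -0.19 with the difference between the sets, both weak. Of the tested genes, 14 have another gene whose transcript holds at least 80% of their coding sequence at 95% identity or more, mostly processed pseudogenes, so reads may be divided between them. Such copies took 8.37% of the joint counts for Ndufa12, 2.67% for Ndufs5, 2.60% for Cox7c and 2.21% for Uqcr10, and under 1% for the others. Exons of 20 subunits overlap those of a gene on the other strand (of those described above, Ndufa13, Ndufa4l2, Ndufb11, Ndufb2, Ndufs1, Ndufs3, Uqcrb, Cox4i1, Cox5a, Cox6a2 and Cox6c), and the strand setting of the counting is not given here.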

How the data were processed

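Gene counts of 6 mouse B cell libraries (3 Cpd10, 3 DMSO) were analysed. The deposited table holds raw counts as whole numbers, made by the authors with STAR 2.7.10a and featureCounts 2.0.6 on the build GRCm38 (mm10); DESeq2 is also named, all per the submitters' processing notes. The strand setting of the counting is not given there. Symbols, biotypes and exon lengths came from GENCODE M21, which held 54809 of the 54838 identifiers; 29 were not found there.

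Counts were fitted with edgeR 4.0.16 in R 4.3.3 (TMM, filterByExpr, robust quasi-likelihood, group as the only term, Benjamini-Hochberg over all 15136 genes, called under 0.05). Log2 fold changes are Cpd10 minus DMSO, and SE is their absolute value over the square root of F. Differences within sets and deviations use log2 CPM with a prior count of 2. Total counts set a small counting error at 10 CPM or more, so the spread between libraries limits precision. The procedure was tested on simulated data. Alternatives were DESeq2 1.42.0, its size factors, no filter, a replicate block, the library set, and each library left out. Named genes are core subunits, those with the smallest p, the highest and lowest per length, paralogues, and the 3 with the largest change among those without overlap; Ndufb11, Nrf1, Gabpa and the genes named for their copies were added after values were seen. The genes, lists and alternatives were chosen with earlier results of these data known. Of the core subunits, 1 is included in the counts and medians and is not reported by name.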

Additional observations from a re-analysis of the deposited data

How the results depend on the processing

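No setting called a subunit except the library set term, which called 1 (Cox6a2) and 1 other pathway gene (Coq8a). Of all genes, 194 were called with no filter, 599 with the set term, 381 by DESeq2, and between 0 (without Cpd10 C) and 100 (without DMSO B) with 1 library left out. Leaving out a library moved the median log2 fold change of all subunits between 0.097 (without Cpd10 B) and 0.28 (without DMSO B), of complex I between 0.072 and 0.27, of complex II between 0.15 and 0.21, of complex III between 0.14 and 0.31, of complex IV between 0.11 and 0.34, and of Cycs between -0.079 and 0.14; complex III was at 0.045 within set 2. The cause was not tested.

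Some named genes changed sign. With the set term the values were -0.33 (Cox6b2), -0.037 (Cox7a2l), -0.059 (Cycs), 0.015 (Ndufa1), -0.023 (Ndufs7) and -0.065 (Uqcrfs1). With 1 library left out the range was -1.02 (without Cpd10 B) to 0.25 (without DMSO B) for Cox6a2, -0.17 (without DMSO C) to 0.52 (without Cpd10 A) for Cox6b2, -1.01 (without Cpd10 C) to 0.19 (without Cpd10 B) for Cox7a1, -0.042 (without Cpd10 B) to 0.16 (without Cpd10 A) for Cox7a2l, -0.079 (without DMSO C) to 0.14 (without DMSO B) for Cycs, -0.11 (without DMSO B) to 0.093 (without DMSO C) for Ndufa1, -0.037 (without DMSO B) to 0.11 (without DMSO A) for Ndufa4, -0.043 (without DMSO C) to 0.022 (without DMSO A) for Ndufs1 and -0.059 (without Cpd10 B) to 0.099 (without Cpd10 A) for Uqcrfs1. None of these passed the test. In the other fits of named genes, 362 values kept direction and side of the threshold and 1 (Cox6a2) passed it with the set term. Of 70 values within a set, which have no test, 13 over 12 genes had the other sign and 10 moved by more than the spread.

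Whether the replicate letters pair the libraries could not be decided. Deviations from the group means correlated at 0.31 for A, 0.43 for B and -0.31 for C. Across letters they correlated between -0.60 (Cpd10 A with DMSO B) and 0.46 (Cpd10 A with DMSO C). The libraries also differ by set, and Cpd10 C and DMSO C lie in different sets, so these values cannot tell pairs from sets. With the letter as a replicate block, 49 genes were called, 0 of them subunits, and the median of the subunits was 0.18.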

Other observations

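Some rows with respiratory chain names lay outside the protein-coding genes. Ndufb1-ps, on chromosome 12, is annotated in GENCODE M21 as a long noncoding RNA at a bidirectional promoter. It was as abundant as many complex I subunits, at 29.5, 40.6 and 37.6 CPM in Cpd10 A, B and C and 29.9, 45.8 and 35.9 CPM in DMSO A, B and C. Its level was higher in every set 2 library than in any set 1 library and overlapped between the groups (log2 fold change -0.051 ± 0.19 SE, edgeR adjusted p = 0.966). The other 6 such rows, all processed pseudogenes, had at most 22 counts in any library.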
